A study of Mus musculus with 24 samples.

Results

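The 9 genes described here mark the macrophages that live in the heart: Folr2, Cbr2, Lyve1, Timd4, Mrc1, Cd163, Mertk, Csf1r and Adgre1. They were taken by gene symbol from the platform annotation, each matched 1 row, and they are 9 of 24011 named genes measured. RNA came from hearts of C57BL/6J mice aged 8 weeks and was hybridised to Affymetrix arrays. The 24 arrays form 4 groups of 6: sham operation at 24 h, occlusion of the middle cerebral artery (MCAO, a model of ischemic stroke of the brain) at 24 h, sham operation at 72 h and MCAO at 72 h. All groups share strain and age and were operated, and they differ in whether the artery was occluded and in the time to sampling. The labels give neither sex nor whether an array is 1 animal. Titles and time labels set the 72 h groups, although their free description speaks of 24 h.

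Macrophages of the healthy heart are largely seeded before birth and renew in place, whereas others derive from blood monocytes that carry CCR2. The long-lived subset is recognised by TIMD4, LYVE1 and FOLR2. Resident macrophages clear dying cells and cell debris through MERTK, take up haemoglobin-haptoglobin complexes through CD163 and glycoproteins through the mannose receptor MRC1, and depend on the receptor CSF1R, whose ligands are CSF1 and IL-34. The arrays measured RNA of the whole tissue, so that fewer cells of a type and less RNA per cell cannot be told apart in any value below.

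After MCAO the markers did not move as a unit. Folr2, which encodes folate receptor beta, fell at both times, and Cbr2, which encodes a carbonyl reductase, fell at 72 h. Of 24 fits that left out 1 array, 13 kept the call of Folr2 at 24 h and 15 that of Cbr2 at 72 h. Mertk, the efferocytosis receptor, rose at both times, and Cd163, the scavenger receptor, rose at 24 h. For the other 5 markers, Lyve1, Timd4, Mrc1, Csf1r and Adgre1, no difference passed the test at either time. The counts were 2 of 9 higher and 1 lower at 24 h, where 11.1% of all genes were called higher and 10.8% lower, and 1 of 9 higher and 2 lower at 72 h, where 1.17% of all genes were called higher and 1.19% lower. A gene was called when its adjusted p in limma, a linear model fitted to all 24 arrays and 24011 genes, was below 0.05. The median log2 change of the 9 markers was -0.25 at 24 h and -0.16 at 72 h, against 0.01 and 0.00 over all genes.

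The promoters of the 4 markers that were called are printed here because the results turn on these genes and because they moved in opposite directions. They are RefSeq windows of build GRCm38.p6, from 250 bases before to 50 after each annotated start, 5′ to 3′ on the strand of the gene. Windows of 6 of the 9 markers were taken from that table, and Folr2 had 2 annotated starts. The search for markers left out a chromosome, so whether the table holds the other markers is not stated here. Capitals mark matches, on either strand, to the core of the myeloid factor PU.1 (AGGAAGT, which includes the longer form GAGGAAGT) or to a MAF half-site (TGCTGAC), 2 factors of the macrophage lineage.

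Folr2, first annotated start, chr7:101857141-101857440, minus strand: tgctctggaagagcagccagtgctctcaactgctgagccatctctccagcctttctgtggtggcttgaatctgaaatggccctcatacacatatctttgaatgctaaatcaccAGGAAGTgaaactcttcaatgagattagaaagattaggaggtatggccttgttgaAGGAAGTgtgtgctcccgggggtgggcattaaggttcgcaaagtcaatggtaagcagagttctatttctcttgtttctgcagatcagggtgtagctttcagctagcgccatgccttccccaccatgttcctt
Folr2, other annotated start, chr7:101845282-101845581, minus strand: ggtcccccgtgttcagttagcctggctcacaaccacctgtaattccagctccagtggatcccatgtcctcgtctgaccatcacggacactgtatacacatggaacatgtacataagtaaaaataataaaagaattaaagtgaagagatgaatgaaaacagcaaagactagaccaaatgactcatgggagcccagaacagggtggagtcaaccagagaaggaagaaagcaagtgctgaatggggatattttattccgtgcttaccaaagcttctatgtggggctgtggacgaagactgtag
Cbr2, chr11:120731972-120732271, minus strand: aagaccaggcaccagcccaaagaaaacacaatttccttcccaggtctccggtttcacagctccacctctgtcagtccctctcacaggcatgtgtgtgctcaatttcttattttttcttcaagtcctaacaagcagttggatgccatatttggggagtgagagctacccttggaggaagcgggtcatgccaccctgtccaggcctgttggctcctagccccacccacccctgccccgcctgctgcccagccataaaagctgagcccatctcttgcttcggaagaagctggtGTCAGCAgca
Mertk, chr2:128698665-128698964, plus strand: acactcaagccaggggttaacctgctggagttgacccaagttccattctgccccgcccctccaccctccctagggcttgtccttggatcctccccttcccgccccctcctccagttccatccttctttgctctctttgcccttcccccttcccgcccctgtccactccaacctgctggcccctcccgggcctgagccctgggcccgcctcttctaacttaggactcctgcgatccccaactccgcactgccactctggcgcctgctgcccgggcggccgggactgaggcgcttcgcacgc
Cd163, chr6:124304401-124304700, plus strand: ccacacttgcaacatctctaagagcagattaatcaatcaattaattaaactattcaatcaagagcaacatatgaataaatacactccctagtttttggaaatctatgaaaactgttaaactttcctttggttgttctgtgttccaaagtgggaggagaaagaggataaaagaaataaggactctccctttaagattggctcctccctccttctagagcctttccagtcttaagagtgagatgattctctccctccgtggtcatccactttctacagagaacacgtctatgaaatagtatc

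The window at the first Folr2 start held 2 matches to AGGAAGT, with first bases at -137 and -82 from the start. The short core was in 9.35% of all 32851 windows and GAGGAAGT in 3.2%, and the latter in none of the 5 printed here. Cbr2 held the MAF half-site at 40 bases after its start, as GTCAGCA on the printed strand, and 4.67% of windows held it. The third motif searched was the glucocorticoid response element (GNACANNNTGTNC), found in 0.475% of windows and in none of the 5. A match is a run of letters and was not tested for binding.

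Folr2 (Entrez Gene 14276) had the largest difference among the markers. Its log2 level at 72 h ran from 7.01 through a median of 7.61 to 8.16 after sham operation, and from 6.05 through 6.39 to 6.73 after MCAO. Every MCAO array of this time lay below every sham array, which was the case in one direction or the other for 3.54% of all genes. The means were 7.60 ± 0.41 and 6.39 ± 0.26 (log2, mean ± SD, n = 6 each), so that Folr2 was 2.31-fold lower (log2 change -1.21, SE 0.22, adjusted p = 0.00261 in limma). At 24 h the sham arrays ran from 6.86 through 7.63 to 7.95 and the MCAO arrays from 6.02 through 6.96 to 7.46. These groups overlapped, although 6 of 6 MCAO arrays lay below the sham mean, and Folr2 was 1.55-fold lower (log2 change -0.63, SE 0.22, adjusted p = 0.0444). The call at 24 h ended in 11 of the 24 fits that left out 1 array, with adjusted p up to 0.119 without MCAO 24 h replicate 4, the array with the lowest Folr2, and ended when only the 24 h arrays were fitted (adjusted p = 0.115). It also ended with array weights (adjusted p = 0.0683), and when the fit was adjusted for the receptor axis, the leading component of variation among the dim genes for smell and pheromone receptors (-0.30, adjusted p = 0.76). At 72 h the call was made in all 24 fits that left out 1 array.

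Cbr2 (Entrez Gene 12409) was lower at 72 h. Its log2 level ran from 8.55 through 8.92 to 9.24 in sham hearts and from 7.73 through 8.16 to 8.41 after MCAO, again with no overlap. The fall was 1.79-fold (log2 change -0.84, SE 0.22, adjusted p = 0.0355). It lost its call in 9 of 24 fits that left out 1 array, each an array of a 72 h group, with changes between -0.77 and -0.86 in those fits. At 24 h the MCAO arrays ran from 7.77 through 8.36 to 9.34 and the sham arrays from 7.94 through 8.85 to 9.20, and the change of -0.35 (95% interval -0.80 to 0.09, adjusted p = 0.256) did not pass. The value of 9.34 belonged to MCAO 24 h replicate 6, and without that array the change was -0.55 (SE 0.19, adjusted p = 0.0344).

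**Figure D1:**
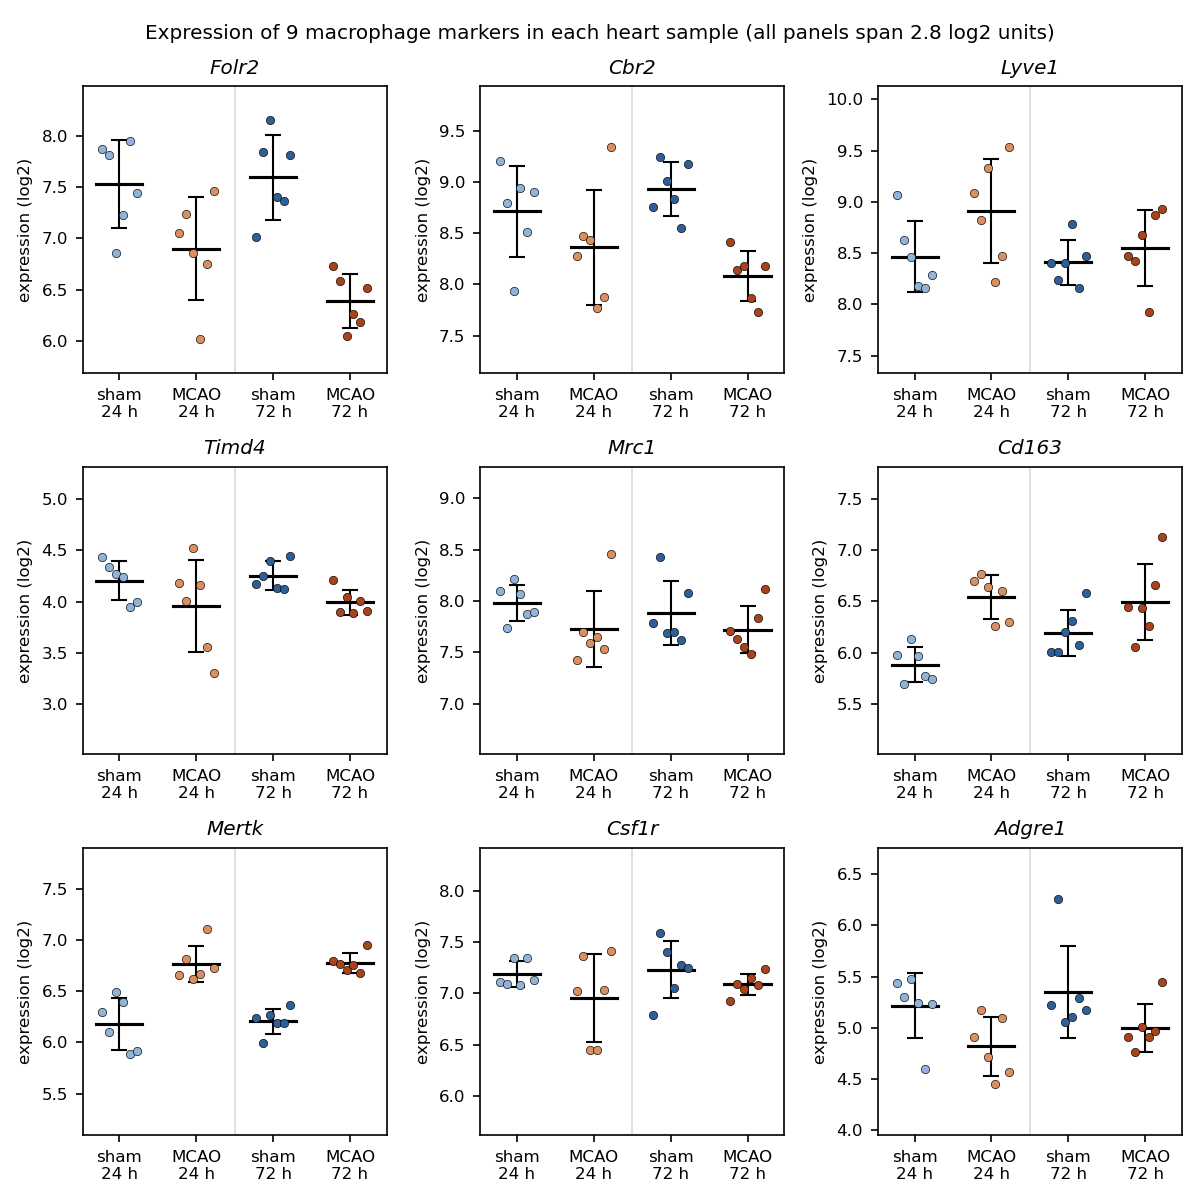
Log2 expression of the 9 markers (vertical axes, each spanning the same number of log2 units) in the 4 groups (horizontal axis), with a point for each of 6 arrays, a bar at the mean and error bars of 1 SD. Folr2 and Cbr2 after MCAO at 72 h lie below all sham arrays of that time, whereas Mertk lies above all sham arrays at both times.

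Lyve1, the hyaluronan receptor gene that resident macrophages share with lymphatic vessels, did not follow Folr2 and Cbr2. At 24 h its log2 level was 8.91 ± 0.51 after MCAO and 8.46 ± 0.35 after sham operation (n = 6 each), a change of 0.45 that did not pass (95% interval 0.03 to 0.87, adjusted p = 0.118). It passed when replicate 4 of MCAO 24 h was left out (0.59, adjusted p = 0.0372) and when replicate 1 of sham 24 h was left out (0.57, adjusted p = 0.0496). At 72 h the change was 0.14 (95% interval -0.28 to 0.56, adjusted p = 0.995). Among 7 measured genes of lymphatic endothelium, 1 rose and 1 fell at 24 h, and by limma 0 were called at 72 h (2 higher at an unadjusted p below 0.05). Reln, which lymphatic endothelium secretes, rose by 0.48 (SE 0.09, adjusted p = 0.001), and Prox1, the lymphatic fate factor that cardiomyocytes also express, fell by 0.38 (SE 0.12, adjusted p = 0.0223). The mean log2 level of that list per array ran from 4.93 to 5.10 in sham and from 4.87 to 5.40 in MCAO hearts at 24 h, and from 4.79 to 5.14 and from 4.99 to 5.39 at 72 h. The part of lymphatic vessels in the Lyve1 values was not tested.

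Timd4 encodes a receptor for phosphatidylserine on dying cells. Its signal was low, with group means between 3.96 and 4.25, and it was the marker nearest to the level of olfactory and vomeronasal receptor genes, which are mostly silent outside sensory tissue: of 1370 such genes 3.28% had a higher mean, against 0.73% or less for each of the other 8 markers. The changes were -0.25 at 24 h (95% interval -0.55 to 0.04, adjusted p = 0.218) and -0.26 at 72 h (95% interval -0.56 to 0.03, adjusted p = 0.574). At 72 h the sham arrays ran from 4.12 through 4.21 to 4.45 and the MCAO arrays from 3.88 through 3.96 to 4.21. The groups overlapped at their ends, and 6 of 6 MCAO arrays lay below the sham mean.

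Cd163 (Entrez Gene 93671) rose at 24 h. Sham arrays ran from 5.69 through 5.87 to 6.13 and MCAO arrays from 6.25 through 6.62 to 6.77, with no overlap, which was seen in one direction or the other for 5.53% of all genes at this time. The means of 5.88 ± 0.17 and 6.54 ± 0.22 (log2, n = 6 each) differ 1.59-fold (log2 change 0.66, SE 0.14, adjusted p = 0.00193), and the call was made in all 24 fits that left out 1 array. It ended (0.76, SE 0.26, adjusted p = 0.134) when adjusted for the receptor axis, in a fit that called 1.33% of all genes at 24 h. At 72 h sham arrays ran from 6.00 through 6.13 to 6.58 and MCAO arrays from 6.05 through 6.44 to 7.13. The groups overlapped and the change of 0.30 did not pass (95% interval 0.01 to 0.59, adjusted p = 0.419). Sham 72 h lay above sham 24 h by 0.31 for this gene, which did not pass (95% interval 0.02 to 0.61, adjusted p = 1). Whether the effect of MCAO on Cd163 differed between the times was tested as the difference of both changes, which was -0.36 (SE 0.20, adjusted p = 0.351).

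Mrc1, the mannose receptor gene that is used with Cd163 as a mark of tissue macrophages, had no called difference. Its log2 level at 24 h was 7.98 ± 0.18 in sham and 7.73 ± 0.37 in MCAO hearts (n = 6 each), a change of -0.25 (95% interval -0.57 to 0.07, adjusted p = 0.253). In MCAO 24 h replicate 6 it was 8.46, above the range of 7.43 to 7.70 of the other 5 arrays of that group. Without that array the change was -0.40 (SE 0.13, adjusted p = 0.0275), and without replicates 5 and 6 it was -0.39 (adjusted p = 0.0475). At 72 h the change was -0.16 (95% interval -0.48 to 0.16, adjusted p = 0.913).

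Mertk (Entrez Gene 17289) had the smallest p of the 9 markers at both times. At 24 h the sham arrays ran from 5.89 through 6.20 to 6.50 and the MCAO arrays from 6.62 through 6.69 to 7.10. At 72 h the sham arrays ran from 5.99 through 6.21 to 6.36 and the MCAO arrays from 6.67 through 6.76 to 6.95. All 12 MCAO arrays were above all 12 sham arrays. The groups of 1 time did not overlap, in either direction, for 5.53% of all genes at 24 h and 3.54% at 72 h. The share for both times together was not counted. The rise was 1.50-fold at 24 h (log2 change 0.58, SE 0.10, adjusted p = 0.00024) and 1.49-fold at 72 h (0.57, SE 0.10, adjusted p = 0.00149), and it was called in all 24 fits that left out 1 array at each time. Adjusted for the receptor axis, the change at 24 h was 0.29 (SE 0.16, adjusted p = 0.376), in a fit that called 1.33% of all genes, and the call at 72 h was kept. The difference between both changes was -0.01 (95% interval -0.30 to 0.27, adjusted p = 0.973).

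Csf1r, the receptor for CSF1 on which macrophages depend, and Adgre1, which encodes F4/80, mark most mouse macrophages. Csf1r was 7.19 ± 0.13 in sham and 6.95 ± 0.43 in MCAO hearts at 24 h and 7.23 ± 0.28 and 7.09 ± 0.11 at 72 h (log2, n = 6 each). Its changes were -0.23 (95% interval -0.53 to 0.07, adjusted p = 0.273) and -0.14 (95% interval -0.45 to 0.16, adjusted p = 0.937). Both intervals include 0. Adgre1 was 5.22 ± 0.32 and 4.82 ± 0.29 at 24 h (log2, n = 6 each). At 72 h its sham arrays ran from 5.05 through 5.20 to 6.25 and its MCAO arrays from 4.77 through 4.94 to 5.45. The changes of -0.40 (95% interval -0.77 to -0.02, adjusted p = 0.12) and -0.35 (95% interval -0.72 to 0.03, adjusted p = 0.534) did not pass. At 24 h Adgre1 was called lower without sham 24 h replicate 5 (-0.52, adjusted p = 0.0392) and without sham 72 h replicate 2 (-0.40, adjusted p = 0.0456). Without the latter array, its highest value, the change at 72 h was -0.16 (adjusted p = 0.928).

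**Figure D2:**
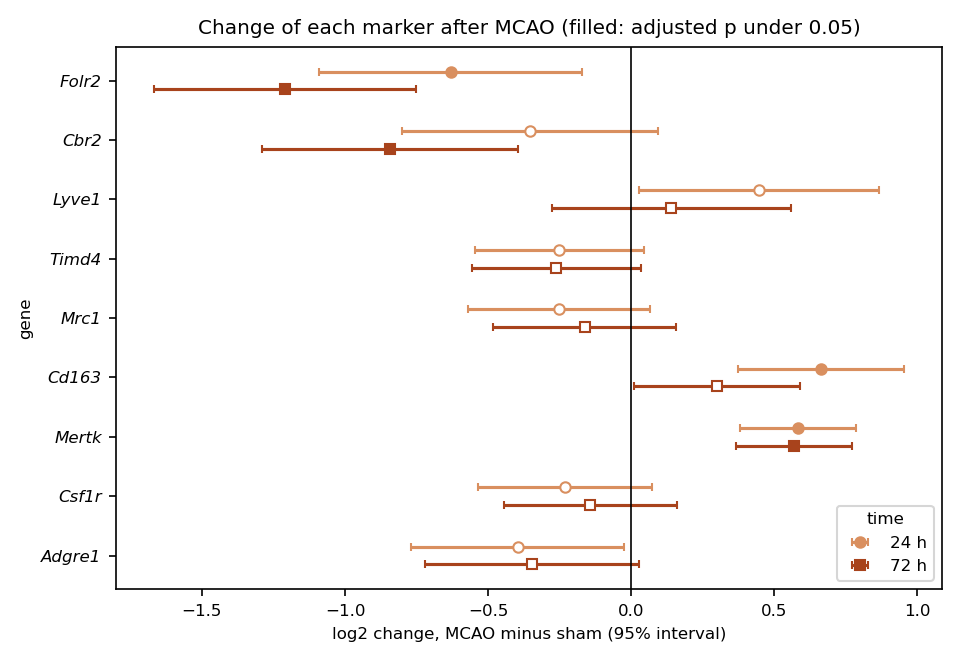
Log2 change of each marker, MCAO minus sham (horizontal axis), at 24 h (circles) and 72 h (squares) with its unadjusted 95% interval from limma; filled symbols mark an adjusted p below 0.05. The changes run from -1.21 for Folr2 at 72 h to 0.66 for Cd163 at 24 h.

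The order of the group means differed between markers. For Folr2 and Cbr2 it ran, from high to low, sham 72 h, sham 24 h, MCAO 24 h and MCAO 72 h, and the ranges of all neighbouring groups in that order overlapped. For Mertk both MCAO groups stood above both sham groups, with no overlap between MCAO 24 h (lowest array 6.62) and sham 72 h (highest array 6.36). For Csf1r, Timd4, Mrc1 and Adgre1 both sham groups had higher means than both MCAO groups, and neighbours overlapped. None of the 9 markers differed between the times in the size of the MCAO effect by limma (0 of 9, and 0 at an unadjusted p below 0.05), where 1.79% of all genes did. For Folr2 this difference was -0.58 (95% interval -1.23 to 0.07, adjusted p = 0.347), so a further fall from 24 h to 72 h was not shown. None differed between sham 72 h and sham 24 h (0 of 9, and 1, Cd163, at an unadjusted p below 0.05), where 0.0208% of all genes did.

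Because Csf1r and the other markers were read on the same array, the change of their ratio could be followed within each sample. The level of such a ratio has no meaning here, since each gene has its own probes, and only its shift between groups is read. That shift is the log2 change of the marker minus that of Csf1r. Whether Csf1r RNA follows the number of macrophages was not tested. Relative to Csf1r, Folr2 was 1.07 lower on the log2 scale after MCAO at 72 h, with the log2 ratio going from 0.37 ± 0.24 to -0.70 ± 0.30 (n = 6 each). Cbr2 was 0.70 lower, from 1.70 ± 0.25 to 1.00 ± 0.31. At 24 h the shifts of these genes were smaller, -0.40 for Folr2 and -0.12 for Cbr2. Lyve1 shifted the other way, by 0.68 at 24 h and 0.28 at 72 h. Mertk relative to Csf1r was 0.71 higher at 72 h (from -1.02 ± 0.35 to -0.31 ± 0.10) and 0.81 higher at 24 h. Cd163 was 0.90 higher at 24 h (from -1.31 ± 0.18 to -0.41 ± 0.44) and 0.44 higher at 72 h. The shifts of Mrc1 relative to Csf1r were -0.02 at both times, those of Adgre1 were -0.17 and -0.20, and those of Timd4 were -0.02 and -0.12. These ratios were set up after the data were examined and are given as values with no test.

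**Figure D3:**
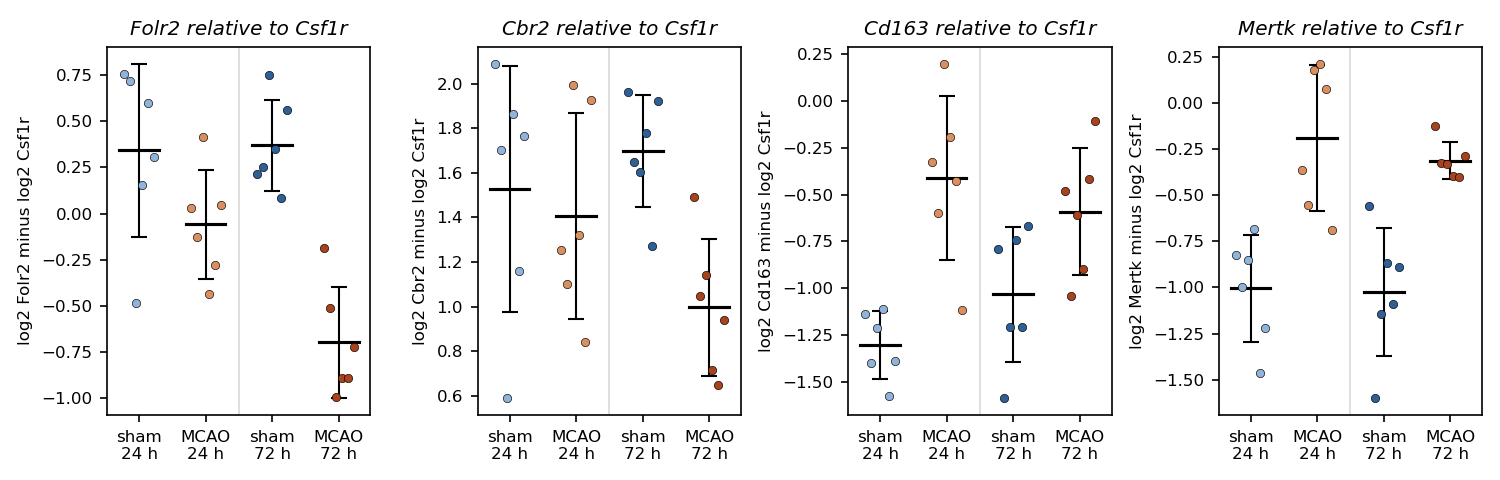
Log2 ratio of Folr2, Cbr2, Cd163 and Mertk to Csf1r in the same array (vertical axes, each with its own range) in the 4 groups, with a point per array, a bar at the mean and error bars of 1 SD (n = 6). At 72 h Folr2 and Mertk shifted in opposite directions, by -1.07 and 0.71.

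Arrays of one group differed among themselves in ways that the markers shared only in part. Over deviations from the group means in all 24 arrays, Folr2 and Cbr2 had the highest Pearson r of the 36 pairs of markers, 0.698 (Spearman rho 0.613, and r = 0.551 over the 22 arrays left without the 2 of most extreme Folr2, MCAO 24 h replicate 4 and sham 24 h replicate 3). The median r of the 36 pairs was 0.14, and 8 pairs were negative, down to -0.515 for Timd4 and Csf1r (rho -0.376). Replicate 6 of MCAO 24 h held the highest Folr2, Cbr2, Lyve1, Mrc1 and Csf1r of its group and the lowest Timd4. That array and replicate 5 correlated least with the other arrays of their group across genes (r = 0.971 and 0.976, against 0.985 to 0.997 in the other 22 arrays). Without both arrays the counts at 24 h were 2 higher, Cd163 and Mertk, and 2 lower, Folr2 and Mrc1, in a fit that called 24.4% of all genes in either direction.

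Among genes at or above the median level, 12006 in all, those whose deviations over the 24 arrays were most like a marker's are given as a description, the highest of many, with the 9 markers themselves left out. For Folr2 they were Pf4 (r = 0.794), a chemokine gene also found in resident macrophages, Tff1 (0.738) and Spaca4 (0.697). For Cbr2 they were Atf6b (0.789), Emp3 (0.783) and Mfap5 (0.769), the last a microfibril gene of fibroblasts. For Mrc1 they were the myeloid inhibitory receptor gene Lilrb4a (0.842), Zfp326 (0.799) and the haematopoietic phosphatase gene Inpp5d (0.782), and for Adgre1 Dock10 (0.841), Scpep1 (0.835) and Ankfy1 (0.827). Csf1r was most like Btg1 (0.841), Lrrk1 (0.78) and Islr (0.776), Cd163 most like Fmo2, Jag1 and Zfp638 (0.742 to 0.748), Mertk most like Zfp654, Wasf2 and Stim2 (0.754 to 0.795), Lyve1 most like Ptprj, Itih4 and Klhl18 (0.752 to 0.782) and Timd4 most like Wbp4, Sestd1 and Ankhd1 (0.862 to 0.92). The low Timd4 signal varied most in MCAO 24 h (SD 0.45, against 0.13 to 0.19 in the other groups). There replicates 5 and 6, the arrays least like their group, were lowest (3.56 and 3.30).

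Counts of the following lists stand against the shares of all genes given above, 11.1% higher and 10.8% lower at 24 h and 1.17% and 1.19% at 72 h. Of 19 other genes of resident macrophages measured, 1 rose and 1 fell at 24 h (median log2 change 0.03), and by limma 0 rose and 0 fell at 72 h, with 5 lower and 0 higher at an unadjusted p below 0.05 (median -0.10). Slc40a1, which encodes the iron exporter ferroportin, rose from 5.88 ± 0.57 to 6.96 ± 0.42 (log2, n = 6 each, 2.11-fold, adjusted p = 0.00192). Cd209d, a C-type lectin gene, was called lower by 0.29 (SE 0.07, adjusted p = 0.0039) at a signal that 25.5% of the receptor genes exceeded. Pf4, the gene most like Folr2 across arrays, had a difference of -0.58 at 72 h that did not pass (SE 0.26, adjusted p = 0.362).

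General macrophage genes gave 1 of 19 higher and 2 lower at 24 h (median -0.08), and 0 and 0 at 72 h in limma, with 4 lower and 0 higher at an unadjusted p below 0.05 (median -0.23). Those called at 24 h were Cd14, the lipopolysaccharide co-receptor gene (0.49, SE 0.17, adjusted p = 0.036), the lysosomal protease gene Lgmn (-0.44, SE 0.14, adjusted p = 0.0325) and Aif1, which encodes IBA1 (-0.32, SE 0.12, adjusted p = 0.0478). The Aif1 signal was low, with a mean that 3.72% of the receptor genes exceeded. At 72 h 17 of 19 changes were negative. They included C1qa of the complement system (-0.50, adjusted p = 0.176), the Fc receptor gene Fcgr1 (-0.55, adjusted p = 0.11) and the fractalkine receptor gene Cx3cr1 (-0.38, adjusted p = 0.157), named after their values were seen. The mean of the list per array ran from 6.25 to 7.17 in sham 72 h and from 6.06 to 6.56 in MCAO 72 h, and its median change was -0.13 without sham 72 h replicate 2. Without that array Folr2 and Mertk were still called at 72 h, and Cbr2 was not (-0.78, adjusted p = 0.0921).

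Among 17 measured genes of monocytes and recruited macrophages, 3 rose and 1 fell at 24 h and 1 rose at 72 h (medians 0.10 and -0.03). Ccr2, the receptor that defines recruited macrophages, was at 3.97 ± 0.17 and 3.90 ± 0.22 at 24 h and at 4.06 ± 0.39 and 3.78 ± 0.09 at 72 h in sham and MCAO hearts (log2, n = 6 each), with adjusted p = 0.762 and 0.419. The Ccr2 signal was low, with a mean that 5.18% of the receptor genes exceeded, which limits what its lack of a call shows. Ly6c2 rose at 24 h (0.99, SE 0.18, adjusted p = 0.000468). Its near-identical neighbour Ly6c1, which endothelium expresses, rose by 1.03 (SE 0.18, adjusted p = 0.000323), and probes that cannot separate both genes would read either, so Ly6c2 is uncertain as a monocyte signal here. Nr4a1, a nuclear receptor gene of patrolling monocytes that is also an immediate-early gene, rose by 2.38 (SE 0.30, adjusted p = 1.51e-05) and Arg1 fell by 0.31 (SE 0.09, adjusted p = 0.0151). The Arg1 signal was also low, with a mean that 3.72% of the receptor genes exceeded. Gpnmb, a lysosomal gene of lipid-laden macrophages, rose by 0.44 at 24 h (SE 0.15, adjusted p = 0.0397) and by 0.87 at 72 h (SE 0.15, adjusted p = 0.00152).

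Among ligands and growth factors of macrophage receptors, Csf1, which encodes a ligand of CSF1R, fell at both times. It was 7.38 ± 0.25 in sham and 6.91 ± 0.18 in MCAO hearts at 24 h (log2 change -0.46, SE 0.12, adjusted p = 0.0105), and 7.65 ± 0.24 and 6.93 ± 0.23 at 72 h (-0.72, SE 0.12, adjusted p = 0.00154, n = 6 each). Il34, the other ligand of CSF1R, rose at 24 h (0.44, SE 0.08, adjusted p = 0.000835) and was at a log2 difference of 0.18 at 72 h (not called, adjusted p = 0.405). Of the 11 genes of this list, which also holds cytokines whose receptors are not among the 9 markers, 3 were called higher and 1 lower at 24 h, and 1 lower at 72 h. The other genes called higher were Csf2 (0.27, SE 0.06, adjusted p = 0.00126) and Il10 (0.23, SE 0.05, adjusted p = 0.00263). Their signals were at background level, with means that 72.8% and 35.9% of the receptor genes exceeded, and no rise of these transcripts is read from them. The bridging proteins of MERTK were not called: Gas6 had log2 differences of -0.25 and 0.01 (adjusted p = 0.0763 and 1) and Pros1 of 0.29 and 0.07 (adjusted p = 0.274 and 1) at 24 h and 72 h. Hp, which encodes the haptoglobin that CD163 takes up with haemoglobin, had differences of -0.09 and -0.01 (adjusted p = 0.795 and 1).

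Among 16 other efferocytosis genes 2 rose and 2 fell at 24 h and 1 rose at 72 h (medians 0.03 and 0.01). Axl, a receptor kinase of the MERTK family, rose at 24 h (0.36, SE 0.12, adjusted p = 0.0397), as did the scavenger receptor gene Cd36 (0.27, SE 0.05, adjusted p = 0.000816). Cd36, which cardiomyocytes use to take up fatty acids, also rose at 72 h (0.20, SE 0.05, adjusted p = 0.0373). Cd300lb (-0.34, SE 0.08, adjusted p = 0.00312) and Havcr1 (-0.25, SE 0.09, adjusted p = 0.0469) were called lower at 24 h, at signals that 5.62% and 16.1% of the receptor genes exceeded.

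**Figure D4:**
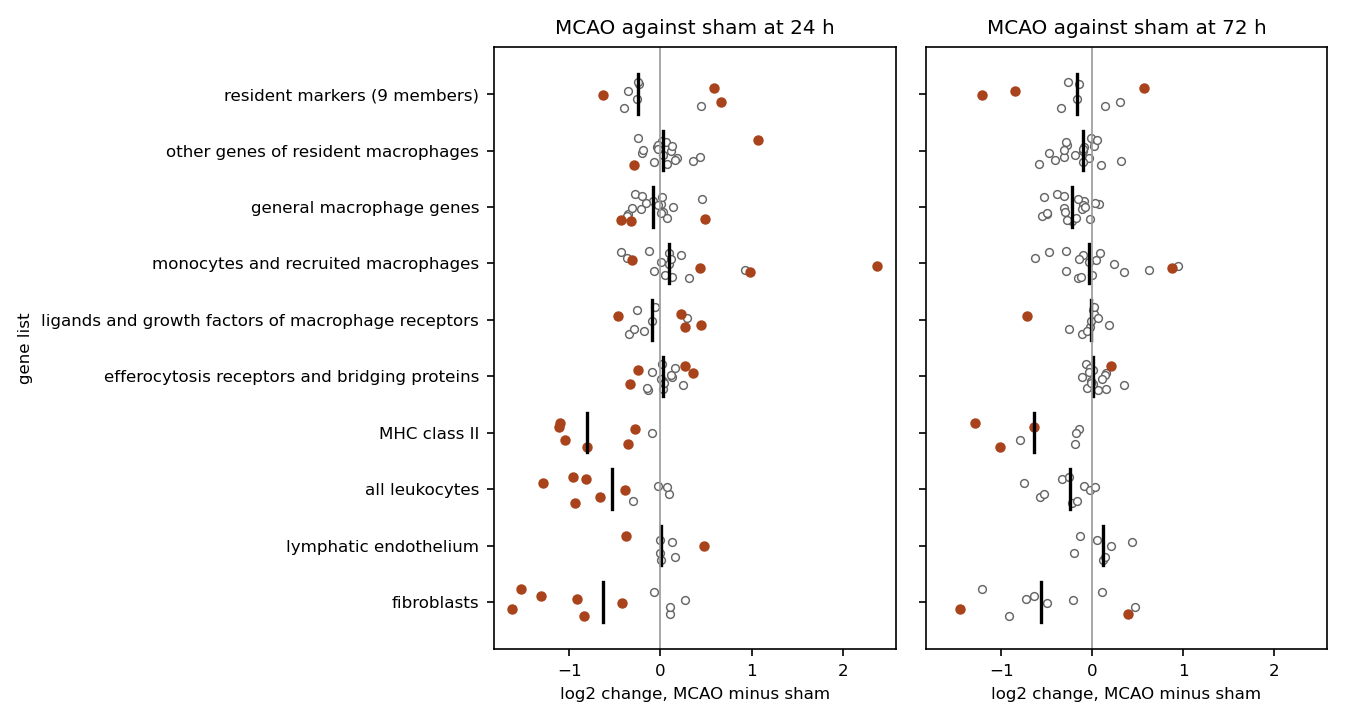
Log2 change of each gene, MCAO minus sham (horizontal axes), at 24 h and 72 h, in rows for the 9 markers and for 9 other lists; filled points have an adjusted p below 0.05 and vertical bars are medians, while vertical scatter within a row has no meaning. The medians of MHC class II genes are -0.80 and -0.64, against -0.25 and -0.16 for the 9 markers.

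Markers of other cells also moved after MCAO. In the MHC class II, leukocyte and fibroblast lists below, limma called 0 genes for a difference of the MCAO effect between the times. Across all genes 1.79% were called. At an unadjusted p below 0.05 this difference was positive for 3 leukocyte and 2 fibroblast genes. It was negative for 1 gene of each of these lists, and 0 MHC class II genes reached that level. Of 7 MHC class II genes, which macrophages, dendritic cells and B cells express, 6 fell at 24 h and 3 at 72 h, and the array means of the list ran from 6.21 to 6.77 in sham and from 5.65 to 6.17 in MCAO hearts at 72 h. Of 10 genes of all leukocytes 6 fell at 24 h, among them Arhgdib (-0.94, SE 0.15), Rac2 (-0.96, SE 0.17), Lcp1 (-1.29, SE 0.25) and Cd53 (-0.82, SE 0.17). At 72 h 0 of these 10 were called by limma and 3 were lower at an unadjusted p below 0.05. Their array means ran from 5.36 to 5.58 in sham and from 4.79 to 5.13 in MCAO hearts at 24 h, and from 5.19 to 6.00 and from 5.04 to 5.25 at 72 h. Ptprc, which encodes CD45, had differences of 0.10 (adjusted p = 0.725) and -0.53 (adjusted p = 0.137).

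Of 10 fibroblast genes 6 fell at 24 h, and 1 fell (Col3a1) and 1 rose (Gsn) at 72 h, with array means from 8.01 to 9.20 in sham and from 7.75 to 8.36 in MCAO hearts at 72 h. Of 10 neutrophil genes 2 were called higher at 24 h, Retnlg (0.64, SE 0.13) and Mmp8 (0.28, SE 0.08), at low signals that 11.7% and 15.7% of the receptor genes exceeded, and by limma 0 were called at 72 h (0 at an unadjusted p below 0.05). Of 9 measured B and T cell genes 1 was called higher at 24 h, Ms4a1 (0.20, SE 0.07), at a signal that 33.4% of the receptor genes exceeded. Of 8 dendritic cell genes 0 were called by limma at either time, with 2 higher and 1 lower at an unadjusted p below 0.05 at 24 h and 0 at 72 h. The means of the dendritic cell genes were exceeded by 1.39% (Zbtb46) to 13.4% (Batf3) of the receptor genes. Blood endothelium gave 3 of 10 higher and 1 lower at 24 h and 1 and 1 at 72 h. Smooth muscle and pericytes gave 1 of 10 higher and 3 lower at 24 h, then 1 higher at 72 h. Red blood cells gave 1 of 4 higher and 1 lower at 24 h, then by limma 0 called at 72 h (1 lower at an unadjusted p below 0.05). The one called higher was Hbb-bs, at a signal that 33.1% of the receptor genes exceeded. Cardiomyocyte genes had array means between 12.42 and 12.76 in all groups, with 3 of 10 lower at 24 h and by limma 0 at 72 h (3 lower at an unadjusted p below 0.05). These levels lie near the highest value of all arrays, 13.49. Actc1 was at 13.49 with an SD of 0 in both sham groups, so changes at such levels may be missed. The part of these cells in the marker values was not tested.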

How the data were processed

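Per the labels' protocols, heart RNA was isolated with Trizol and biotin-labelled cRNA was made from it. The authors deposited log2 values of 24 Affymetrix arrays for 24973 gene identifiers. The base of the log was inferred from the values (2.78 to 13.5), as was the authors' quantile normalization: the sorted values were identical in 23 of 24 columns. The remaining column differed from these. With quantile normalization applied on top, 21.8% of all genes were called at 24 h, as in the main fit. How probes were summarized and corrected for background, and on which build, is not given in the sources used. HOMER is listed in the submitters' processing notes with no stated role. No detection limit was analysed here, and the number of arrays limits the precision.

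Of the identifiers 24015 had 1 gene symbol, 0 several and 958 none in the platform annotation. Where a symbol had several identifiers (4 symbols), the one with the highest mean stood for it, giving 24011 genes. With R 4.3.3 and limma 3.58.1, lmFit and eBayes fitted 4 group means to the 24 arrays, which left 20 residual degrees of freedom. P-values were adjusted by Benjamini-Hochberg over all genes, with a threshold of 0.05. The labels do not state that replicates are separate animals, so a p-value reflects only the spread among samples, which may be technical.

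The 9 markers and 16 other lists (177 of 187 other genes measured), the motifs and the rule for named genes (all markers, up to 4 called genes per list by p, and 3 most alike genes per marker) were chosen with earlier results of these data known. List counts without MCAO 24 h replicates 5 and 6 or sham 72 h replicate 2 were added after the data were examined. The fit was tested on simulated data, and no result of that test is given here. Alternatives are in the closing section.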

Additional observations from a re-analysis of the deposited data

Results flagged for a closer look

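In all, 4 of the 36 combinations of marker and group held an array far from the other 5 by Dixon's test, which chance flags in about 1 of 20 groups. In MCAO 24 h, Mrc1 of replicate 6 was 8.46 (log2), with the next array at 7.70. In sham 24 h, Adgre1 of replicate 5 was 4.60, below the next at 5.24. In sham 72 h, Adgre1 of replicate 2 was 6.25, above the next at 5.29, and in MCAO 72 h, Adgre1 of replicate 6 was 5.45, above the other 5 arrays. Replicate 6 of MCAO 72 h also held the highest Lyve1, Mrc1, Cd163, Mertk and Csf1r of its group.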

How the results depend on the processing

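The calls of Folr2 and Mertk at 72 h were made under all 10 other settings and in all 24 fits without 1 array. Cbr2 at 72 h was called under the 10 settings and in 15 of 24 such fits. The receptor component, the first principal component of olfactory and vomeronasal receptor genes (23.1% of their variance), changed most at 24 h: as a covariate it left 0 markers called higher and 0 lower, and 1.33% of all genes called in either direction, against 21.8% in the main fit. In that fit the log2 changes were, for Cd163, 0.76 (SE 0.26, adjusted p = 0.134), for Mertk 0.29 (SE 0.16, adjusted p = 0.376) and for Folr2 -0.30 (SE 0.40, adjusted p = 0.76). The cause was not tested. The count of markers lower at 24 h, 1 in the main fit, was 0 with array weights (13.6% of all genes called), 0 when only the groups compared were fitted (9.14%) and 2 without MCAO 24 h replicates 5 and 6 (24.4%). Without 1 array it ran from 0 to 3 at 24 h, in fits that called 17.6% to 24.4% of all genes in either direction. The count lower at 72 h ran from 1 to 2, in fits that called 1.64% to 3.42%. With the replicate number as a block the counts were unaltered (2 higher and 1 lower at 24 h, 1 higher and 2 lower at 72 h). That fit called 20.6% of all genes at 24 h and 2.16% at 72 h. Same-numbered arrays correlated between -0.0695 and 0.141 in their deviations. Replicates 1 and 3 of MCAO 72 h were most like the sham array of their own number (0.0763 and 0.141). No other MCAO array was. These correlations cannot show whether same-numbered samples were handled together. Over 1220 combinations of marker, comparison and alternative, 25 lost a call, 7 gained one and 0 called values changed sign. The filter on dim genes left out Timd4. Signal near that of receptor genes limits Timd4.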
